A study of Mus musculus with 8 samples.

Results

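The genes described here are 8 low-count genes of the mouse cingulate gyrus, *Stab2*, *Cpa6*, *Tmprss5*, *Trpv3*, *Lrrc46*, *Rab26os*, *Gm6989* and *Gm42878*. They were chosen from the gene counts themselves, as genes with a mean of under 5 CPM (reads per 1000000 counts of the library, whose size is scaled by its TMM factor) for which every sample of one genotype had a higher level than every sample of the other. Of the 53379 genes in the count table, 16914 had enough counts to be tested and 5361 of these had a mean under 5 CPM. The genotypes did not overlap for 128 of the 5361 genes (2.39%), against 1.52% of all genes tested, and the 8 genes are among the 128. In the ranking of the 128 by p-value they come directly after *Mvp* itself, as given below. Since this separation chose them, it is given as a description of the counts and not as a result.

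Bulk RNA sequencing of polyadenylated RNA was done on 4 *Mvp*+/+ (WT) and 4 *Mvp*-/- (Mvp KO) samples of male mice, all labelled as cingulate cortex. The mutant allele is a gene trap from 1 embryonic stem cell clone, with a β-geo cassette and polyadenylation site in the first intron of *Mvp*, on a C57BL/6 background. The age of these mice is not given in the sources used here. Stranded libraries were read as single ends of 50 bases, and total counts per sample lay between 28456504 and 42854368.

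*Mvp* encodes the major vault protein, the main component of the vault, a large ribonucleoprotein particle of the cytoplasm. The 8 genes have no known function in common. *Stab2* encodes stabilin-2, a scavenger receptor that clears hyaluronan and is best known from the sinusoidal endothelium of the liver and spleen. *Cpa6* encodes a secreted metallocarboxypeptidase of the extracellular matrix, and *Tmprss5* encodes spinesin, a serine protease anchored in the plasma membrane. *Trpv3* encodes a warmth-sensitive cation channel best known from keratinocytes, and *Lrrc46* a leucine-rich repeat protein of the sperm flagellum. *Rab26os* is a noncoding RNA inside the span of *Rab26*, on the opposite strand. *Gm6989* is a processed pseudogene of the glycolytic gene *Gapdh*, and *Gm42878* is a gene model that runs across *Mapkapk5* and *Adam1a*.

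The labels were checked with *Mvp*, at 6.83 ± 1.0 CPM in WT and 1.63 ± 0.334 CPM in Mvp KO (mean ± SD, n = 4 each), with a log2 fold change of -2.06 (standard error 0.186) and a Benjamini-Hochberg adjusted p = 0.0162 in the quasi-likelihood fit of edgeR. With a mean of 4.23 CPM, *Mvp* meets the same rule and is not counted among the 8 genes. It was the only 1 of 16914 genes past an adjusted p of 0.05 (0.00591%). Leaving out 1 sample at a time gave *Mvp* fold changes of -2.22 to -1.99 (log2) and edgeR adjusted p-values of 0.00446 to 0.147, past 0.05 in 2 of 8 fits (without WT replicate 4 or Mvp KO replicate 3). DESeq2's Wald test called 2 of 30813 genes (0.00649%), and none of the 8 genes was among these calls. The 9 markers of cortical excitatory neurons were present in all samples, with a summed level of 5315 to 5804 CPM in WT and 4476 to 5895 CPM in Mvp KO. WT replicate 4 stood apart from the other WT samples, with 1762 summed CPM of interneuron markers against 916 to 1012 CPM, and with fewer leptomeningeal transcripts (19.3 CPM against 54.6 to 58.5 CPM). Replicates come from separate sample labels, and nothing in the labels states that each is 1 animal, so that p-values measure the spread between these samples. In bulk tissue, fewer cells of a type and less RNA per cell cannot be told apart.

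Of the 8 genes, 6 were higher in Mvp KO and 2, *Rab26os* and *Gm6989*, were higher in WT. Over all genes tested, 0.828% did not overlap with Mvp KO higher and 0.692% with WT higher. Of the 5361 low-count genes, these were 78 (1.45%) and 50 genes (0.933%). Ranked by the p-value of the edgeR fit, the 8 genes were numbers 2 to 9 of the 128, directly after *Mvp*, so that they are the extreme end of this list. In the fit across all genes, 0 of the 8 passed an adjusted p of 0.05 with edgeR (adjusted p = 0.969 for each) or with DESeq2, whose lowest adjusted p for them was 0.9998. All 8 had an unadjusted p under 0.05 with edgeR, as did 264 of all genes tested (1.56%). Separation alone does not give this, since p in the same edgeR fit ran up to 0.464 among the 128 genes (*Fam69c*). It goes with the choice of the smallest p-values in that list and is not a result. The sum over the 8 samples ran from 76 counts for *Lrrc46* to 761 counts for *Gm42878*. Single samples held between 3 and 149 counts.

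**Figure D1:**
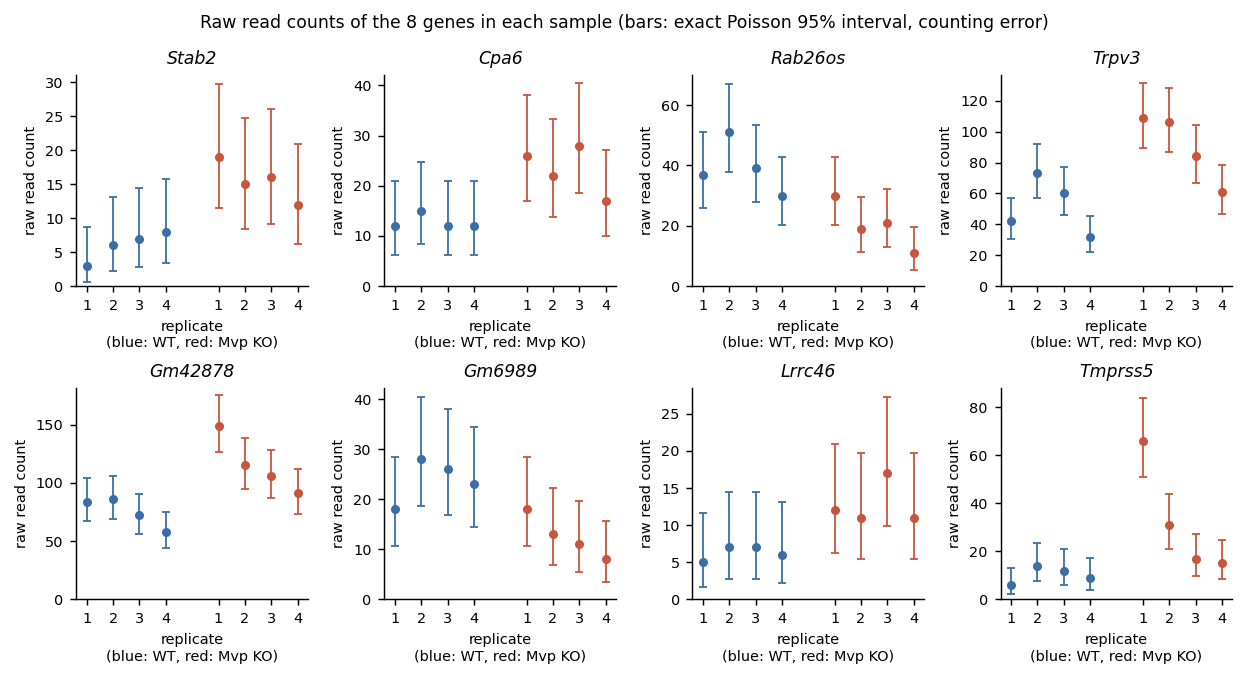
Raw read count (vertical axis) of each of the 8 genes in the 4 WT (blue) and 4 Mvp KO (red) samples by replicate number, with exact Poisson 95% intervals that cover counting error only. Counts run from 3 to 149 per sample, the *Tmprss5* count of Mvp KO replicate 1 is 66 against 15 to 31 in the other Mvp KO samples, and the unscaled counts of *Rab26os*, *Trpv3* and *Gm6989* overlap or meet between the genotypes.

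*Stab2* (ENSMUSG00000035459) lies on the minus strand of chromosome 10, from 86841198 to 87008025 on GRCm38 (mm10). The WT replicates 1 to 4 held 3, 6, 7 and 8 counts, and the Mvp KO replicates 1 to 4 held 19, 15, 16 and 12 counts. The lowest Mvp KO count thus exceeded the highest WT count without any scaling, by 4 reads. Scaled, the levels were 0.171 ± 0.0724 CPM in WT and 0.433 ± 0.0274 CPM in Mvp KO (SD, n = 4 each), a log2 fold change of 1.35 (standard error 0.323). The summed counts, 24 and 62, gave a ratio of Mvp KO over WT of 2.60 once scaled by library size, as in the ratios of sums that follow, with a 95% counting interval of 1.60 to 4.36 (exact conditional binomial). Taking 6 reads from the lowest Mvp KO sample on the CPM scale, replicate 2, would have made the genotypes meet. The 4 Mvp KO samples were closer together than counting alone gives, with a variance 0.0666 times the Poisson variance, and the 4 WT samples were near it (1.05 times).

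None of the receptor's relatives passed the test. *Stab1*, which encodes the other stabilin, had 19.5 ± 3.0 CPM in WT and 17.7 ± 2.94 CPM in Mvp KO (SD, n = 4 each), with overlapping genotypes. Among 15 genes of hyaluronan receptors, synthesis, breakdown and matrix, all tested, 0 passed an adjusted p of 0.05 with edgeR or DESeq2 and 0 had an unadjusted p under 0.05 with edgeR. Over all genes tested, these shares were 0.00591% and 1.56% with edgeR. In lists this short, here and below, a count of 0 or 1 says little about the list. The median log2 fold change of the 15 genes was 0.08, beside a median of 0.00 over all genes tested. The 7 endothelial markers summed to 226 ± 37.0 CPM in WT and 220 ± 30.1 CPM in Mvp KO (SD, n = 4 each), and the 6 markers of lymphatic and meningeal cells to 26.7 ± 5.29 and 28.04 ± 6.77 CPM, and in both lists the genotypes overlapped.

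*Cpa6* (ENSMUSG00000042501) lies on the minus strand of chromosome 1, from 10324720 to 10719945. In order of replicate number, the WT samples held 12, 15, 12 and 12 counts and the Mvp KO samples 26, 22, 28 and 17. Every Mvp KO count was above every WT count before scaling. The scaled levels were 0.357 ± 0.0168 CPM in WT and 0.648 ± 0.0630 CPM in Mvp KO (SD, n = 4 each), a log2 fold change of 0.86 (standard error 0.209). The sums of 51 and 93 counts gave a ratio of 1.83 (95% counting interval 1.29 to 2.64). Both genotypes varied less than counting alone gives, with variances 0.0266 and 0.216 times the Poisson variance, so that the SD of *Cpa6* understates its counting error. No Mvp KO sample's 95% counting interval lay clear of any WT sample's, in 0 of 16 pairs of samples.

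Of the 16 relatives and binding partners of *Cpa6* in the table, 9 were tested and 0 passed an adjusted p of 0.05 with edgeR or DESeq2, with 0 at an unadjusted p under 0.05 with edgeR. The nearest digestive relatives were at or near 0, with 0 counts in any sample for *Cpa1* and 8 counts in all for *Cpa3*, which encodes the mast cell carboxypeptidase. *Cpe*, which encodes the prohormone-processing carboxypeptidase of secretory granules, was the 1 member of the list whose genotypes did not overlap, at 2622 ± 310 CPM in WT and 2329 ± 35.9 CPM in Mvp KO (SD, n = 4 each; adjusted p = 0.969 from edgeR). In *Cpe* the higher genotype was WT, the opposite of *Cpa6*. Over all genes tested, 1.52% did not overlap, and 1 gene of 9 is too few to set against that share.

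*Tmprss5* (ENSMUSG00000032268) lies on the plus strand of chromosome 9, from 49081260 to 49117587. The WT samples, by replicate number, held 6, 14, 12 and 9 counts of it and the Mvp KO samples 66, 31, 17 and 15. Mvp KO replicate 1 held more counts than the other 3 Mvp KO samples together, and the lowest Mvp KO count was 1 read above the highest WT count. The levels were 0.283 ± 0.0747 CPM in WT and 0.870 ± 0.548 CPM in Mvp KO (SD, n = 4 each), a log2 fold change of 1.62 (standard error 0.452), the largest of the 8. The sums of 41 and 129 counts gave a ratio of 3.17 (95% counting interval 2.21 to 4.62). The spread among the Mvp KO samples was 12.6 times the Poisson variance, against 0.682 times in WT. Without Mvp KO replicate 1 the log2 fold change was 1.101.

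Oligodendrocyte transcripts differed between the same samples. The 4 markers of oligodendrocytes (*Mbp*, *Mog*, *Mobp* and *Mag*), of which none was at 0, summed to between 740 and 1651 CPM in WT and between 892 and 3325 CPM in Mvp KO. Mvp KO replicates 1 and 2 had the 2 highest sums, 3325 and 2229 CPM, and also the 2 highest *Tmprss5* levels, 1.65 and 0.860 CPM. In Mvp KO replicates 3 and 4 the marker sums, 1144 and 892 CPM, lay within the WT range. *Tmprss5*, at 0.447 and 0.526 CPM there, was above the highest WT sample, at 0.346 CPM, as the choice of the gene required. The sums of WT and Mvp KO overlapped, and a two-sided exact permutation test did not tell them apart (p = 0.286, adjusted p = 0.929 over 13 marker lists, n = 4 each), and 4 against 4 samples cannot go below p = 0.0286 in such an exact test. With the log2 sum of these markers as a covariate, an alternative chosen after the data were seen, the log2 fold change of *Tmprss5* was 0.98 (standard error 0.332). The summed ependymal markers were also highest in Mvp KO replicate 1, at 13.5 CPM, where the remaining 3 Mvp KO samples lay between 3.05 and 4.60 CPM. In that list 3 of 6 genes were tested, and the defining genes *Ccdc153* and *Tmem212* were at 0 counts in some samples of both genotypes. Most of their counts came from a single Mvp KO sample, with 114 of 129 and 43 of 46 counts (2.84 and 1.07 CPM). The highest WT levels were 0.206 and 0.0635 CPM. The part of either cell type in the *Tmprss5* counts was not tested further.

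**Figure D2:**
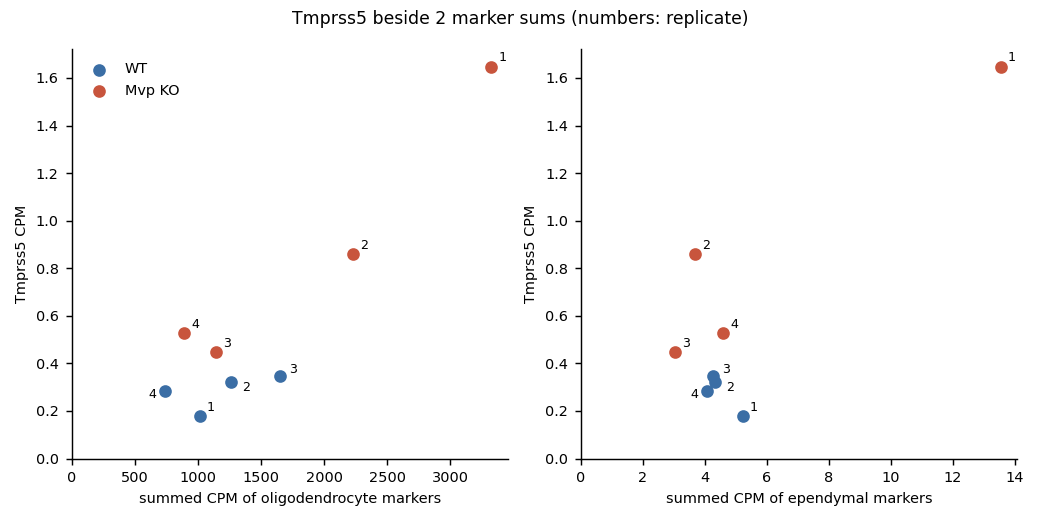
*Tmprss5* level in CPM (vertical axis) against the summed CPM of 4 oligodendrocyte markers (left) and 6 ependymal markers (right), 1 point per sample, blue for WT and red for Mvp KO, with the replicate number beside it. Mvp KO replicate 1 lies highest on each axis, at 1.65 CPM of *Tmprss5*, 3325 CPM of oligodendrocyte markers and 13.5 CPM of ependymal markers.

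The other membrane-anchored serine proteases were also sparse. Of 14 in the table, 4 passed the filter on low counts, 0 passed an adjusted p of 0.05 with edgeR or DESeq2, and 1 had an unadjusted p under 0.05 with edgeR. This was *St14*, which encodes matriptase, with 0.548 ± 0.117 CPM in WT and 0.340 ± 0.0439 CPM in Mvp KO (SD, n = 4 each), a log2 fold change of -0.68 (standard error 0.253), and it was higher in WT where *Tmprss5* was higher in Mvp KO. *Tmprss7*, at 3.80 ± 0.686 and 4.47 ± 0.200 CPM, and *Hpn*, which encodes hepsin, at 1.91 ± 0.354 and 1.95 ± 0.292 CPM, overlapped between WT and Mvp KO (SD, n = 4 each).

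*Trpv3* (ENSMUSG00000043029) lies on the plus strand of chromosome 11, from 73267388 to 73300363. By replicate number, 42, 73, 60 and 32 counts fell on it in WT and 109, 106, 84 and 61 in Mvp KO. As raw counts the genotypes overlapped, since WT replicate 2, the deepest library, held 73 counts and Mvp KO replicate 4, the shallowest, held 61. Scaling to library size separated them, to 1.42 ± 0.346 CPM in WT and 2.502 ± 0.390 CPM in Mvp KO (SD, n = 4 each), a log2 fold change of 0.82 (standard error 0.219). The sums of 207 and 360 counts gave a ratio of 1.75 (95% counting interval 1.47 to 2.09). In 11 of 16 pairs of a WT and a Mvp KO sample the counting intervals lay apart, the most of the 8 genes. The spread within each genotype was over counting error, with variances 2.88 and 2.08 times the Poisson variance in WT and Mvp KO.

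*Trpv3* lies beside *Trpv1* and *Aspa*. *Trpv1*, which encodes the capsaicin receptor, had 47 counts in all samples together and was not tested. *Aspa*, which encodes aspartoacylase, an enzyme of oligodendrocytes, had 8.32 ± 2.69 CPM in WT and 14.4 ± 9.84 CPM in Mvp KO (SD, n = 4 each), a log2 fold change of 0.79 (standard error 0.490), with overlapping genotypes. Mvp KO replicates 1 and 2, with the most oligodendrocyte transcripts, had the highest levels of *Aspa* (24.8 and 20.6 CPM) and of *Trpv3* (2.72 and 2.94 CPM). The oligodendrocyte sums of Mvp KO replicates 3 and 4 lay within the WT range. *Trpv3* was 2.21 and 2.14 CPM there, above the highest WT sample (1.73 CPM), as the choice of the gene required. *Aspa* was 7.05 and 4.95 CPM there, against 5.33 to 10.8 CPM in WT. With the oligodendrocyte covariate the log2 fold change of *Trpv3* was 0.63 (standard error 0.192). The values of the other genes with this covariate are given below. The part of oligodendrocytes in the *Trpv3* counts was not tested further. Of the other 5 vanilloid-type channels, 3 were tested, 0 passed an adjusted p of 0.05 with edgeR or DESeq2 and 0 had an unadjusted p under 0.05 with edgeR. *Trpv2* had 26.4 ± 3.86 and 23.3 ± 1.50 CPM in WT and Mvp KO, and *Trpv6*, an epithelial calcium channel, had 2.06 ± 1.36 and 4.17 ± 1.86 CPM (SD, n = 4 each), with overlapping genotypes in both.

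*Lrrc46* (ENSMUSG00000020878) lies on the minus strand of chromosome 11, from 97034602 to 97041407, and had the fewest counts. WT replicates 1 to 4 held 5, 7, 7 and 6 counts, and Mvp KO replicates 1 to 4 held 12, 11, 17 and 11 counts. Each Mvp KO count was above each WT count, by at least 4 reads. The levels were 0.175 ± 0.0252 CPM in WT and 0.359 ± 0.0706 CPM in Mvp KO (SD, n = 4 each), a log2 fold change of 1.02 (standard error 0.283). The sums of 25 and 51 counts gave a ratio of 2.05 (95% counting interval 1.25 to 3.46). As in *Cpa6*, both genotypes varied less than counting gives (0.127 and 0.525 times the Poisson variance), and the counting intervals lay apart in 0 of 16 pairs.

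Genes of motile cilia and flagella were compared because of the known place of the *Lrrc46* protein. Of 25 in the table, 21 were tested, 0 passed an adjusted p of 0.05 with edgeR or DESeq2, and 14 had a log2 fold change above 0 and 7 below. Their median log2 fold change was 0.12, and the genotypes of 0 of the 21 did not overlap. Over all genes tested, 8457 log2 fold changes lay above 0 and 8457 below, and 1.52% did not overlap. In a list of this size 0 such genes say little. *Drc7*, a component of the nexin-dynein regulatory complex, was the 1 gene with an unadjusted p under 0.05 in edgeR's test, at 0.411 ± 0.258 CPM in WT and 0.862 ± 0.347 CPM in Mvp KO (SD, n = 4 each). *Foxj1*, which encodes the transcription factor of motile ciliogenesis, had 1.49 ± 0.186 and 1.93 ± 1.15 CPM. The highest *Lrrc46* level was in Mvp KO replicate 3, which had the lowest ependymal marker sum, 3.05 CPM.

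*Rab26os* (ENSMUSG00000093565) lies on the plus strand at chr17:24528248-24528744 and is annotated as antisense. It lies inside the span of *Rab26*, which encodes a GTPase of secretory vesicles and is on the opposite strand. The spliced transcript of *Rab26os* has 2 exons and 298 bases, with a polyadenylation hexamer AATAAA at base 277, which ends 16 bases before the end of the transcript. It is shown because such a hexamer bears on whether a noncoding RNA is taken up by a library of polyadenylated RNA. The small nucleolar RNA *Snord60* (78 bases, from 24528476 to 24528553) lies inside the intron between the exons, from 24528437 to 24528635. The sequence is that of GENCODE vM21 on GRCm38, 5′ to 3′ with the intron removed, and capitals mark the hexamer.
Rab26os transcript: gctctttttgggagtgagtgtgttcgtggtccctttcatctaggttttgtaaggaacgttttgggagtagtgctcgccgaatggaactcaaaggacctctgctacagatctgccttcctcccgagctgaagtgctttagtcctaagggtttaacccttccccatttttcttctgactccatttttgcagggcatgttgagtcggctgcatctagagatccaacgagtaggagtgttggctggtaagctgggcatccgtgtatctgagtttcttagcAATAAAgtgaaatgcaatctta

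The counts of *Rab26os* by replicate number were 37, 51, 39 and 30 in WT, and 30, 19, 21 and 11 in Mvp KO. WT replicate 4 and Mvp KO replicate 1 both held 30 counts, so that only scaling separated them. The levels were 1.09 ± 0.0950 CPM in WT and 0.553 ± 0.149 CPM in Mvp KO (SD, n = 4 each), a log2 fold change of -0.96 (standard error 0.234). Summed, 157 WT and 81 Mvp KO counts gave a WT over Mvp KO ratio of 1.93 (95% counting interval 1.46 to 2.55). The separation was 1.27-fold between the 2 adjoining samples, and 7 reads fewer in WT replicate 4 would have closed it. Per 1000 exonic bases *Rab26os* had the highest level of the 8 genes, 1.65 CPM, against 0.0345 CPM for *Stab2*.

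*Rab26* itself had 1106 to 1889 counts per sample, at 45.3 ± 10.4 CPM in WT and 42.8 ± 8.11 CPM in Mvp KO (SD, n = 4 each), a log2 fold change of -0.08 (standard error 0.183). Its genotypes overlapped, and its exons share no base with those of *Rab26os*. The lowest *Rab26* level, 30.7 CPM, was in Mvp KO replicate 2, whereas the lowest *Rab26os* level, 0.386 CPM, was in Mvp KO replicate 4. *Snord60* had 0 counts in every sample, in libraries made from polyadenylated RNA. Its 78 bases belong to both annotations, within the unspliced transcript model of *Rab26os*, and the mode in which htseq-count was run is not given in the sources used here. In the default mode a read on these bases is counted for neither gene, so that the 0 would set no bound on the level of *Snord60*. Among 11 genes of secretory vesicle GTPases and their partners, 10 were tested, 0 passed an adjusted p of 0.05 with edgeR or DESeq2 and 0 had an unadjusted p under 0.05 with edgeR.

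The start of *Rab26os* is in the RefSeq promoter table (GRCm38.p6, 250 bases before and 50 after the start), as are those of *Stab2*, *Trpv3* and *Tmprss5*, which has 2 starts there. *Cpa6*, *Lrrc46*, *Gm6989* and *Gm42878* were not matched. On both strands, TATAAA (in 13.6% of 32851 promoter windows), CCAAT (37.4%), GGGCGG (35.7%), TGACGTCA (1.79%) and CACGTG (7.15%) were searched, none of which overlaps another here. The *Rab26os* window held TATAAA once and CCAAT 4 times, counting ATTGG as its reverse, and the *Trpv3* window held CACGTG once, and these 2 windows are shown because they are the only ones with a match. The windows of *Stab2* and *Tmprss5* held none of these letters. Both sequences are on the plus strand, at chr17:24528001-24528300 and chr11:73267270-73267569, and capitals mark the matches.
Rab26os promoter: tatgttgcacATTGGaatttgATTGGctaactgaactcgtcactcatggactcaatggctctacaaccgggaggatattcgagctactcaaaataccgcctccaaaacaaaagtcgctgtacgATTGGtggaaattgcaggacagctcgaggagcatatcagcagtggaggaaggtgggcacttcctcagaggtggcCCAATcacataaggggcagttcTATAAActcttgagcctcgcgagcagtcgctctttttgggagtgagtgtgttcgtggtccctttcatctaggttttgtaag
Trpv3 promoter: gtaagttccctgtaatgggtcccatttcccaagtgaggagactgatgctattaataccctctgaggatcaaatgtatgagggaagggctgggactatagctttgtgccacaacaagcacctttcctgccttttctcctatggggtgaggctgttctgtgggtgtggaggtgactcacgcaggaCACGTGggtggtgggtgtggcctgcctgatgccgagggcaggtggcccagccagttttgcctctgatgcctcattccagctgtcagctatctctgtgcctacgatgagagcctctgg

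The 4 genes thus shared no searched motif. In CG dinucleotides, the *Rab26os* window held 11, *Stab2* and *Trpv3* 4 each and both *Tmprss5* windows 1, against a median of 7 over all windows. A match is a description of the letters and does not show that a factor binds there.

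*Gm6989* (ENSMUSG00000112776) is a processed pseudogene of 654 bases on the minus strand at chr12:29316915-29317568. Over 660 alignment columns with the *Gapdh* transcript *Gapdh*-203 it was 88.3% identical, with 50 mismatches and 27 gap columns. Reads of 50 bases can therefore differ little between them, and of its 605 windows of 50 bases 9 had no difference from *Gapdh* and 62 had 1, with a median of 4. The stretch of 150 bases at chr12:29317337-29317486 (minus strand) is shown with the same stretch of *Gapdh*-203, from GENCODE vM21 on GRCm38, as an example of a closely matching part. It holds fewer differences per base than the median window, and a window held up to 19. Capitals mark the 6 bases that differ.
Gm6989: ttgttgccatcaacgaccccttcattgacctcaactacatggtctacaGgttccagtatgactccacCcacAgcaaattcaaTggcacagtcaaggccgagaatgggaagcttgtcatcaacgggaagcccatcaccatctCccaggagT
Gapdh-203: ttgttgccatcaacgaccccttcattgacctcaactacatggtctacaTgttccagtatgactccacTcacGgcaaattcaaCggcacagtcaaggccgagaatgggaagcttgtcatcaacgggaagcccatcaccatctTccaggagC

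By replicate number, *Gm6989* had 18, 28, 26 and 23 counts in the WT samples and 18, 13, 11 and 8 counts in the Mvp KO samples. WT replicate 1 and Mvp KO replicate 1 both held 18 counts, and the separation rests on the scaling of these 2 libraries. The scaled levels were 0.664 ± 0.0996 CPM in WT and 0.345 ± 0.0781 CPM in Mvp KO (SD, n = 4 each), a log2 fold change of -0.92 (standard error 0.250). With sums of 95 and 50 counts, the WT over Mvp KO ratio was 1.89 (95% counting interval 1.33 to 2.72). A gap of 3 reads, the smallest of the 8 genes, kept the genotypes apart, and the counting intervals lay apart in 0 of 16 pairs.

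*Gapdh* overlapped between the genotypes. It had 11.7 ± 0.994 CPM in WT and 12.3 ± 0.994 CPM in Mvp KO (SD, n = 4 each), a log2 fold change of 0.07 (standard error 0.102). These are 359 to 508 counts per sample, few for a gene of glycolysis that is abundant in most tissues. In the vM21 transcripts, 225 genes matched *Gm6989* at 80% identity or more over at least 500 bases, of which 215 are pseudogenes, and the closest was *Gm3695* with 89.7%. Reads that fit several of these copies have no single place of origin, and whether the *Gm6989* counts came from the pseudogene, from *Gapdh* or from another copy was not tested. The *Gm6989* count was between 4.97% and 6.41% of the *Gapdh* count in WT and between 2.05% and 3.62% in Mvp KO.

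*Gm42878* (ENSMUSG00000105340) lies on the minus strand of chromosome 5, from 121518613 to 121545482, and had the most counts. WT replicates 1 to 4 had 84, 86, 72 and 58 counts and Mvp KO replicates 1 to 4 had 149, 115, 106 and 91 counts. The lowest Mvp KO sample lay 5 reads above the highest WT sample before scaling. The levels were 2.09 ± 0.273 CPM in WT and 3.22 ± 0.381 CPM in Mvp KO (SD, n = 4 each), a log2 fold change of 0.62 (standard error 0.163), the smallest of the 8. The sums of 300 and 461 counts gave a ratio of 1.55 (95% counting interval 1.33 to 1.79). After scaling, the 2 adjoining samples, Mvp KO replicate 3 and WT replicate 1, differed 1.13-fold, the narrowest ratio of the 8.

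The counts of *Gm42878* depend on how overlapping annotations were treated. Of its 4783 exonic bases, 4779 (99.9%) are also exonic in a longer transcript of *Adam1a* in vM21, which leaves 4 of its own, and 1801 are shared with *Mapkapk5*. Without that transcript, it has 2211 bases of its own (46.2%), of which the longest run, 2207 bases from 121522831 to 121525037, has 848 bases opposite exons of *Tmem116*. The authors used another annotation release than vM21, and whether it held this transcript is not known here. *Adam1a*, which encodes a fertilin subunit of sperm, had 146, 164, 139 and 53 counts in WT and 200, 171, 134 and 107 counts in Mvp KO, and its log2 fold change was 0.30 (standard error 0.273). *Mapkapk5*, which encodes a protein kinase downstream of p38, had 39 to 91 counts and a log2 fold change of 0.13 (standard error 0.240). *Tmem116*, on the opposite strand, had 55 to 83 counts and a log2 fold change of 0.06 (standard error 0.172). The genotypes overlapped in all 3 of these genes.

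The other genes differ in how far their reads can be assigned. Of the windows of 50 bases in their vM21 transcripts, 0% were shared with another gene for *Trpv3*, *Lrrc46* and *Tmprss5*, 1.09% for *Stab2*, 3.03% for *Cpa6* and 5.88% for *Rab26os*. The shares were 12.1% for *Gm6989* and 98.9% for *Gm42878*. The 8 genes lie on 7 chromosomes, and none is on chromosome 7, where *Mvp* lies.

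None of the tested genes around the 8 passed the test. Of 28 genes in the table that overlap one of the 8 or lie within 10 kb, 12 were tested, 6 had 0 counts in every sample, and 0 passed an adjusted p of 0.05 with edgeR or DESeq2. None of them had an unadjusted p under 0.05 with edgeR (0 genes), and *Aspa*, with the lowest, had an unadjusted p = 0.141 in edgeR's fit across all genes. The genotypes overlapped in all 12, whose log2 fold changes ran from -0.13 for *Nt5dc3*, beside *Stab2*, to 0.79 for *Aspa*. Over all genes tested, 1.52% did not overlap, so that overlap in all 12 says little. Beside *Lrrc46*, *Mrpl10*, which encodes a mitochondrial ribosomal protein, had a log2 fold change of 0.02 (standard error 0.0654). *Zw10*, a kinetochore gene beside *Tmprss5*, had one of -0.05 (standard error 0.0646). *Gm6989* had no annotated gene within 10 kb.

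**Figure D3:**
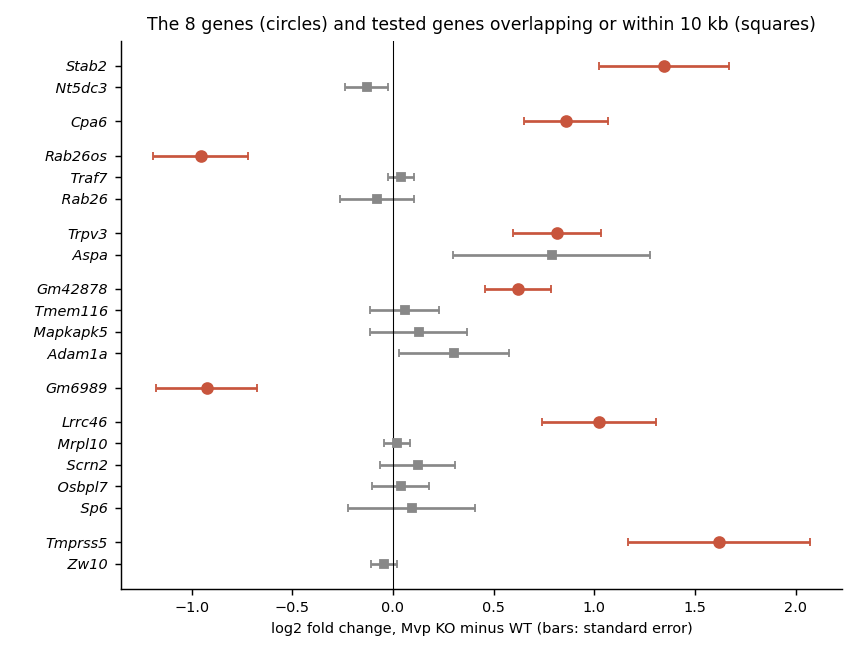
Log2 fold change of Mvp KO over WT (horizontal axis) for the 8 genes (red circles) and, under each, the tested genes that overlap it or lie within 10 kb (grey squares), with standard errors from edgeR as bars. The 8 genes lie between -0.96 and 1.62, away from 0 because of how they were chosen, and the 12 neighbours between -0.13 and 0.79.

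Set beside the whole list from which they came, the 8 genes had larger differences and wider gaps. Their median absolute log2 fold change was 0.94, against 0.52 for the 128 separated low-count genes and 0.10 for all genes tested, and it follows from the choice of the smallest p-values. The gap between the genotypes, as the reads to take from the lowest sample of the higher genotype until it meets the other, had a median of 2.5 reads over the 128 genes and of 6.5 reads over the 8. It was 3 reads or fewer in 84 of the 128 genes. The gap was 6 reads for *Stab2*, 7 for *Cpa6* and *Rab26os*, 12 for *Trpv3* and *Gm42878*, 3 for *Gm6989* and 4 for *Lrrc46* and *Tmprss5*. The 95% counting intervals of the 2 adjoining samples overlapped in all 8 genes.

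**Figure D4:**
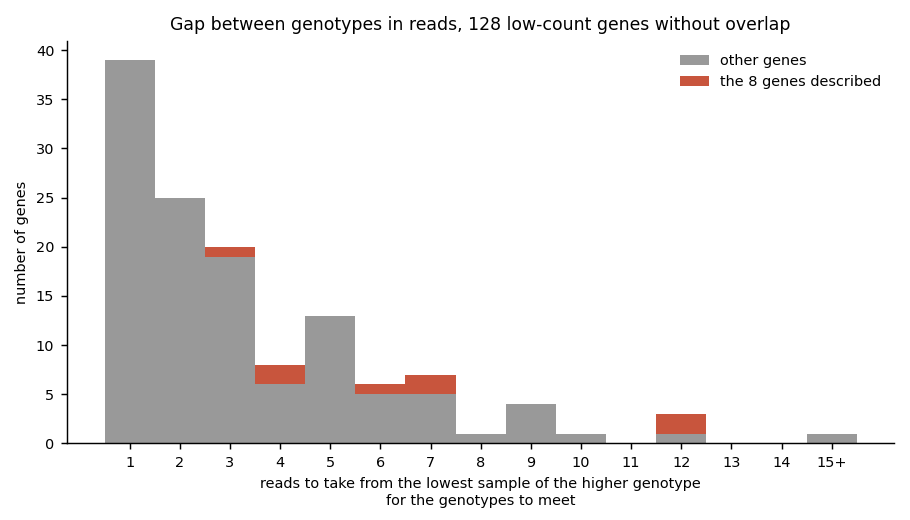
Number of genes (vertical axis) by the reads that would have to be taken from the lowest sample of the higher genotype for the genotypes to meet (horizontal axis, with 15 or more in the last bar), for the 128 low-count genes whose genotypes did not overlap. The 8 genes (red) lie between 3 and 12 reads, and 84 of the 128 genes lie at 3 or fewer.

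By counting error alone the genes fall into different kinds. *Trpv3* and *Gm42878* rest on the most reads, 567 and 761 in all, and their intervals lay apart in 11 and 9 of 16 pairs of samples. *Tmprss5* and *Rab26os* followed, with 7 and 5 pairs, and *Stab2* with 1. *Cpa6*, *Gm6989* and *Lrrc46* had 0 pairs. The counting intervals of the ratios and of the pairs come from the counts that chose the genes and give no support beyond that choice. In 9 of the 16 sets of 4 samples (8 genes, 2 genotypes) the variance was below the Poisson variance.

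**Figure D5:**
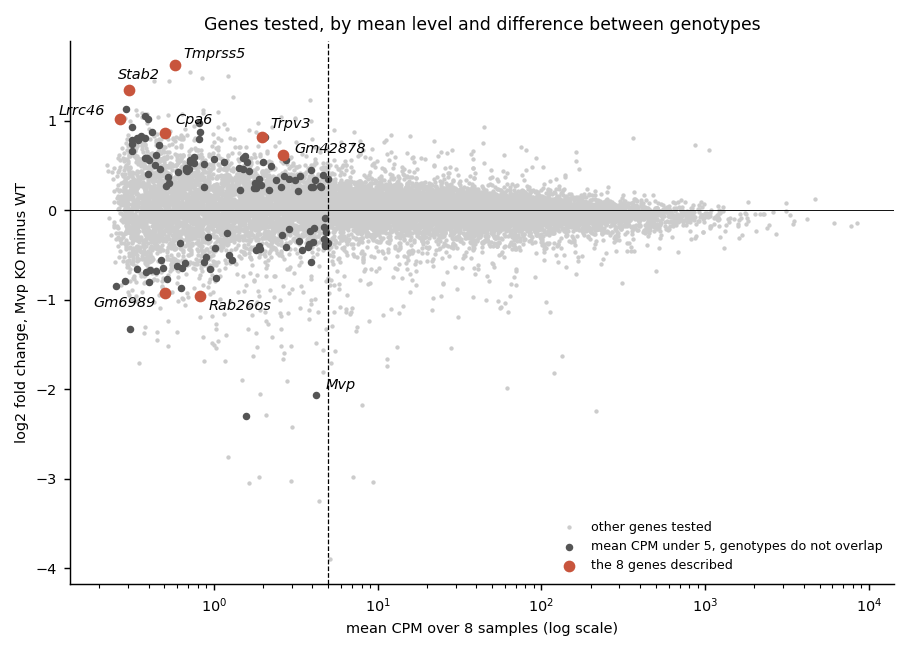
Log2 fold change of Mvp KO over WT (vertical axis) against the mean level in CPM over the 8 samples (horizontal log axis) for the 16914 genes tested, with the 128 low-count genes whose genotypes did not overlap in dark grey, the 8 genes in red and the limit of 5 CPM dashed. The 8 genes lie at mean levels from 0.267 CPM (*Lrrc46*) to 2.66 CPM (*Gm42878*).

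At the limit of 5 CPM, the separated gene just inside was *Hipk2*, with a mean of 4.96 CPM, and the one just outside was *Cenpx*, with 5.04 CPM. *Hipk2* ranged from 3.39 to 5.07 CPM in WT and from 5.08 to 6.21 CPM in Mvp KO, and *Cenpx* from 3.91 to 4.84 CPM and from 4.98 to 6.06 CPM. *Gm42878* is the closest of the 8 genes to the limit.

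For each of the 8 genes, the gene with the most similar profile was sought among 14411 genes with a mean of at least 1 CPM, by Pearson's r of log2(CPM + 0.5) over the 8 samples. The samples share the split between the genotypes by which the 8 genes were chosen, so that r describes these samples and has no test. *Rab26os* was most like *Bc1*, a noncoding RNA of neuronal dendrites (r = 0.994), which had 1489 ± 84.2 CPM in WT and 1113 ± 91.1 CPM in Mvp KO (SD, n = 4 each). *Trpv3* was most like *Hspe1*, a mitochondrial chaperonin gene (r = 0.976), and *Gm6989* most like *Mrps21*, a mitochondrial ribosomal protein gene (r = 0.971). *Tmprss5* was most like *Gm31166* (r = 0.946), *Gm42878* most like *Gm45844* (r = 0.943), *Lrrc46* most like *Gm15879* (r = 0.928), *Stab2* most like *Rpl7l1* (r = 0.925) and *Cpa6* most like *Noxo1* (r = 0.880). The number of genes with r of 0.9 or more ran from 0 for *Cpa6* to 29 for *Trpv3*.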

How the data were processed

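Gene counts of 8 samples, 4 WT and 4 Mvp KO by the sample labels, were analysed. The authors made these raw counts from single-end reads with cutadapt 1.10, Bowtie2 2.2.8, STAR 2.5.3a on mm10 and htseq-count (HTSeq 0.6.1p1), and deposited 1 table without normalization. Reads that htseq-count finds on several genes or at several positions are left out in its default mode; the mode and strand setting are not given in the sources used here, so that overlapping or copied genes can be undercounted. Symbols and coordinates came from GENCODE vM21, which holds 53274 of the 53379 identifiers. No identifier-free entries were used, and 0 columns of samples were left out.

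Counts were filtered with filterByExpr (minimum count 10, minimum total 15), scaled by TMM and fitted with edgeR 4.0.16 in R 4.3.3 (quasi-likelihood test, robust dispersions, genotype as the single term, Benjamini-Hochberg adjustment over 16914 genes). The standard error is the absolute log2 fold change over the square root of F, and the common biological coefficient of variation was 18.3%. Counting intervals are exact Poisson or binomial intervals and cover counting error only. Marker sums were compared with exact permutation tests over 70 arrangements. Genes named are the 8 genes, *Mvp*, genes within 10 kb, *Gapdh*, family lists, the genes next to the 5 CPM limit and the most similar gene of each. Of the 6 family lists, 86 genes were in the table and 62 tested. The 8 genes and the lists were chosen with earlier results of these data known. Alternatives were DESeq2 size factors, the Wald test of DESeq2 1.42.0, no filter, other CPM scalings and limits, the replicate number as a block, leaving out each sample and, added after the data were seen, an oligodendrocyte covariate. The oligodendrocyte sum holds 4 genes, and 1 further marker is not reported here. The fits were tested on simulated counts. Samples of a genotype differed by a chi-square per gene of 6.93 to 96.3, so none was a repeat. Tables were made in Python 3.11.15 (NumPy 2.4.6, pandas 2.3.3, SciPy 1.17.1), and figures with matplotlib 3.10.9.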

Additional observations from a re-analysis of the deposited data

Results flagged for a closer look

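Of 62 groups of 4 samples examined, 9 held 1 sample whose gap to the nearest other exceeded Dixon's 95% critical value as a share of the range, and chance gives 3.1. The *Stab2* level of Mvp KO replicate 1 was 0.474 CPM, above a narrow range of 0.416 to 0.421 CPM for the remaining Mvp KO samples. It rests on 19 counts, and its 95% counting interval of 0.285 to 0.740 CPM covers that range. For *Mvp*, Mvp KO replicate 3 was highest at 2.13 CPM, against 1.44 to 1.51 CPM. For *Rab26*, whose span holds *Rab26os*, Mvp KO replicate 2 had 30.7 CPM, below the 46.3 to 47.3 CPM of the other Mvp KO samples. The summed ependymal markers of Mvp KO replicate 1, which also had the most *Tmprss5*, were 13.5 CPM, against 3.05 to 4.60 CPM. WT replicate 4 stood apart in the sums of 3 marker lists, with 1762 CPM of interneuron markers (916 to 1012 CPM in the others), 18.8 CPM of lymphatic and meningeal markers (29.3 to 29.5 CPM) and 19.3 CPM of leptomeningeal fibroblast markers (54.6 to 58.5 CPM). The summed microglial markers were lowest in WT replicate 3, at 332 CPM, against 369 to 375 CPM. WT replicate 2 had the largest total, 42854368 counts, against 33408202 to 34760784 counts in the other WT samples.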

How the results depend on the processing

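The log2 fold changes of the 8 genes kept their sign under every alternative run. Since the genes were chosen as separated, leaving out a sample or changing the scaling could hardly reverse it. The kept sign is therefore no support for them. With each sample left out in turn they ran from 1.141 to 1.58 for *Stab2*, 0.79 to 0.90 for *Cpa6*, -1.14 to -0.83 for *Rab26os*, 0.69 to 0.92 for *Trpv3*, 0.55 to 0.71 for *Gm42878*, -1.08 to -0.85 for *Gm6989*, 0.89 to 1.11 for *Lrrc46* and 1.101 to 1.83 for *Tmprss5*. Over all settings their lowest adjusted p was 0.846 (edgeR's test, without the filter). With raw counts in place of CPM, 5 of the 8 genes were separated (not *Rab26os*, *Trpv3* or *Gm6989*), and with CPM from library totals or DESeq2's size factors all 8 were. The number of separated low-count genes was 42 with raw counts, 317 without the filter and 237 to 290 with 1 sample left out, where fewer samples have to lie apart. The number of genes past an adjusted p of 0.05 was 2 with DESeq2's Wald test, 0 with the oligodendrocyte covariate (*Mvp* at an adjusted p of 0.0902) and 0 to 1 with 1 sample left out, where *Mvp* was not called in 6 of 8 fits. The labels do not state whether the replicate numbers pair samples. Correlations of deviations between samples of the same number were 0.0534, 0.320, 0.00332 and 0.0646, which do not settle it. With the replicate number as a block, the number of genes past the threshold was 0 (*Mvp* at an edgeR adjusted p of 0.0850). The count of family genes, neighbouring genes or marker sums past an adjusted p of 0.05 was 0 under each alternative run for it. Depth limits these genes: with 3 to 149 counts per sample, taking 3 to 12 reads from 1 library would make the genotypes meet.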
